A study of Mus musculus with 4 samples.

Results

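Among the genes of the circadian clock measured in mouse hippocampal CA1 after foot shock, the output gene Dbp was lowest at 2 h and highest at 6 h, 1.89-fold apart, the largest difference between those arrays among the 10 genes described here. Over all 4 arrays Per2, a dimmer gene, ranged more widely, by 1.93-fold. The 10 genes are the clock activator Clock, the repressors Per1, Per2, Per3, Cry1 and Cry2, the repressor Bhlhe40, and the output factors Dbp, Tef and Nfil3. They were taken by name as the genes whose symbol alone stands for a probe set on the array. On this array a transcript is read by a probe set, a handful of short probes read as 1. All 10 were present, with 13 of 12488 probe sets, among 8251 genes named in this way.

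The animals were young male C57BL/6J mice. They were put in the unfamiliar context 2 h before training, spent 2 min there before each of 3 shocks of 0.5 mA lasting 1 s, and were kept in the chamber afterwards, for 1 h per the labels. Total RNA of CA1 was taken 1, 2, 4 or 6 h after the last shock, with 1 array for each time, 4 in all. The labels call the condition shock alone, all 4 groups received it, and they do not say how many animals a sample holds or at what time of day it was taken. Hours after shock may therefore also be hours of the day, and these cannot be told apart. Unshocked mice were not analysed here, and a level can only be compared with those at other hours. With 1 array per time no test of significance was possible and no p-value is given. A difference is set instead beside the share of all genes that differed as much.

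The mammalian clock is a loop of transcription and its repression that takes about a day. CLOCK pairs with BMAL1, the product of Arntl, or with its relative NPAS2, and binds the E-box, a short DNA element in the regulatory regions of the Per and Cry genes and of Dbp. PER and CRY proteins then accumulate and repress their own transcription. The loop runs in most tissues, the hippocampus included, and Per1 is also known to be induced by cyclic AMP signalling and by glucocorticoids.

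The values are scaled linear intensities. Those below 100.8, the 40th percentile of all values, count as being at a floor, and 9 of the 10 genes lay above it on all 4 arrays, the exception being Nfil3. Markers could speak to the CA1 label only in part. Of 6 CA1 pyramidal neuron markers on the array 5 lay above the floor at all times, Nrgn and Wfs1 among them, but Camk2a did so only at 1 h, at 109.9. Summed, these markers read 7673, 8317, 10001 and 9957 on the 1, 2, 4 and 6 h arrays. Markers of other regions also lay above the floor at all times, 4 of 4 for thalamus, 3 of 5 for striatum and 2 of 4 for neocortex. At 1 h Penk of the striatum list read 2464 and Fezf2 of the neocortex list 2133, where Nrgn read 3619 and Wfs1 1709. The Penk value rests on a probe set of a kind that may read several similar sequences (suffix f_at). The other probe sets of Penk read 193 and 37.6 at 1 h. Lying above the floor thus does not tell CA1 from these regions. Of 5 markers of the suprachiasmatic nucleus and hypothalamus, the seat of the master clock, Avp and Six6 lay below the floor on all 4 arrays. Vip read 181, 207, 173 and 166 and Rgs16 316, 346, 462 and 312 on the 1, 2, 4 and 6 h arrays, above the floor throughout, and Lhx1 was above it on 3 arrays. The summed level of the list was between 633 and 863. The arrays also differed in kind. The 2 h array had the highest ratio of 3' to 5' actin signal, a sign of RNA or labelling quality, at 2.70 against 1.74 to 1.84. For Gapdh this ratio was higher than for actin on every array, at 3.98, 4.82, 3.85 and 3.24 on the 1, 2, 4 and 6 h arrays. The 6 h array held transcripts of choroid plexus, the epithelium that makes cerebrospinal fluid. All 4 of its markers on the array were highest there, with a sum of 7624 against 1216 to 1804, and Ttr read 4482.

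**Figure D1:**
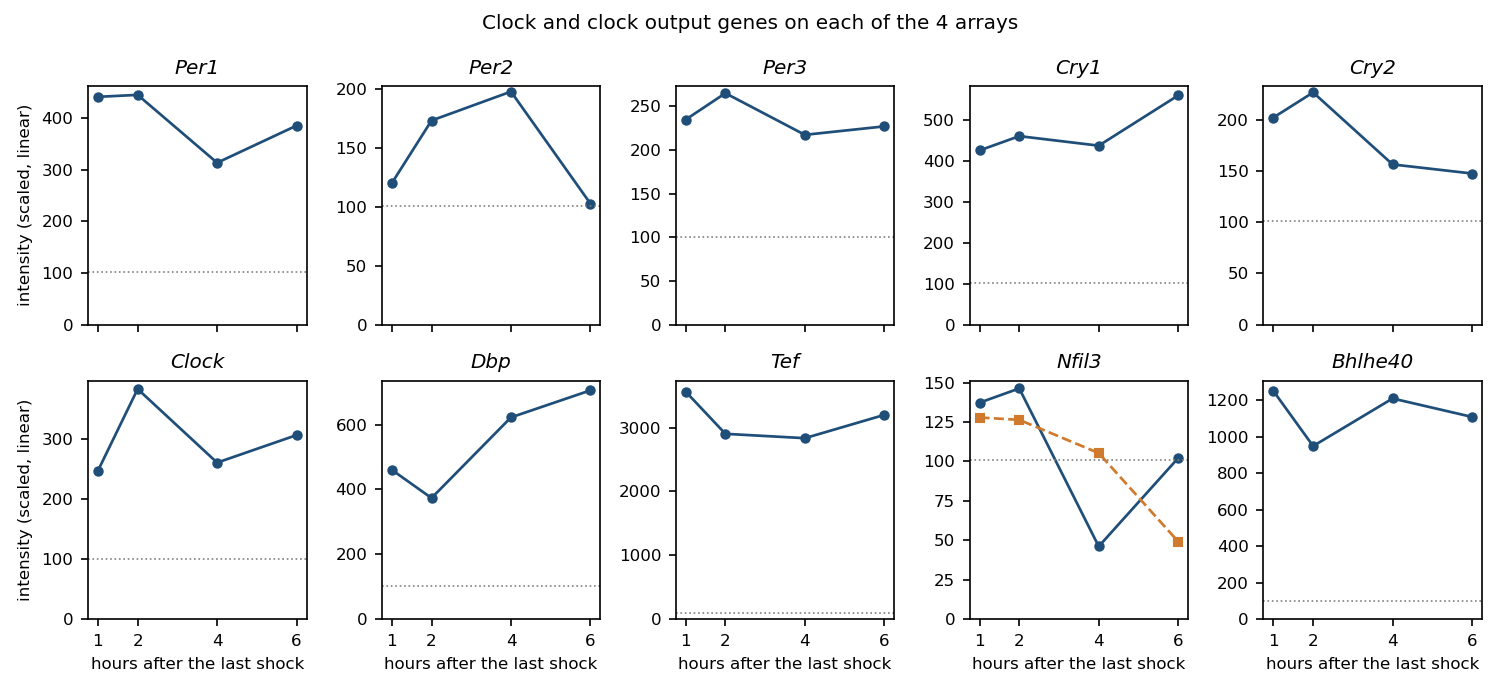
Scaled linear intensity of each of the 10 genes (vertical axis, starting at 0) against hours after the last shock, 1 array per time, with the floor of 100.8 as a dotted line. Solid blue lines show the probe set that stands for the gene, and the dashed orange line the second one of Nfil3, while the dim probe sets of Cry1 are left out. Dbp is highest at 6 h, and Clock and Cry2 at 2 h.

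Clock, the activator, was highest at 2 h. It read 247, 383, 260.3 and 306 on the 1, 2, 4 and 6 h arrays. The 2 h array stood above the other 3, which lay within 1.24-fold of each other. From 1 h to 2 h, its lowest and highest arrays, the difference was 1.55-fold, and 7.51% of all genes were as far apart between these arrays. As large a range over the 4 arrays occurred in 22.1% of all genes, and in 36.2% of the 2420 within 2-fold of its mean intensity. The actin ratio was highest on the 2 h array too, at 2.70, and its part in the course of Clock was not tested.

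The partners of CLOCK added little to this. Arntl, from a wider list of clock genes described further on, read 476, 542, 537 and 471 on the 1, 2, 4 and 6 h arrays, a range of 1.15-fold. Npas2 lay below the floor on all 4 arrays, between 16.9 and 34.0.

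The 3 Period genes, which encode the PER repressors, differed in timing from each other. Per1 read 441, 445, 313 and 385 on the 1, 2, 4 and 6 h arrays. It was level at the 2 early times and lowest at 4 h, 1.42-fold below 2 h, with both late arrays below both early ones. As large a range over the 4 arrays occurred in 34.5% of genes, and in 44.5% of the 2554 within 2-fold of its mean intensity.

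Per2 went another way. It read 120, 173, 198 and 103 on the 1, 2, 4 and 6 h arrays, so it was highest where Per1 was lowest. Its highest and lowest values were 1.93-fold apart. The 6 h value lay just above the floor, and genes this dim vary widely: among 1220 genes within 2-fold of its mean intensity, 15.7% had as large a range, against 7.03% of all genes.

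Per3 had the smallest range of the 9 genes above the floor throughout. It read 235, 265, 218 and 227 on the 1, 2, 4 and 6 h arrays, with a range of 1.22-fold that 68.6% of genes equalled or passed. Among the 2079 genes within 2-fold of its mean intensity 85.9% did. Its 6 h value was lower than that at 1 h by 1.03-fold only, and was the higher of the pair when arrays were scaled to a common median.

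The Cryptochromes, partners of the PER proteins in repression, also parted. Cry1 read 425, 459, 436 and 559 on the 1, 2, 4 and 6 h arrays. The first 3 arrays lay within 1.08-fold and the 6 h array stood 1.22-fold above the nearest of them. This rests on a probe set of a kind that may read several similar sequences (suffix f_at). The other probe sets of Cry1 lay below the floor on all 4 arrays, at no more than 27.5. The 6 h array also held the choroid plexus transcripts, whose part in the course of Cry1 was not tested.

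Cry2 was lower at the late times. It read 202, 227, 156 and 147 on the 1, 2, 4 and 6 h arrays, and both late arrays lay below both early ones. The 6 h value was 1.54-fold below that at 2 h, and 9.13% of genes were as far apart between these arrays. They are the lowest and highest arrays of Cry2. As large a range over the 4 arrays occurred in 23.0% of all genes, and in 44.9% of the 1592 within 2-fold of its mean intensity. The whole range fell to 1.42-fold with a common median or with quantile normalization, and to 1.37-fold without the 2 h array.

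Short promoter windows of the repressors show which of the clock's known elements lie near their start sites. The sequences, from RefSeq on build GRCm38.p6, were available for 8 of the 10 genes, all but Per2 and Bhlhe40. They came in 12 windows of 300 bases from 250 before the start to 50 after it. The elements sought on both strands were the E-box CACGTG, to which CLOCK and its partner bind, the D-box TTATGTAA or TTACGTAA, to which DBP, TEF and NFIL3 bind, the cyclic AMP response element TGACGTCA and the core TGACG, which lies within it, the palindromic glucocorticoid element and the ROR element TAGGTCA. The 250 bases before the start are printed for 3 repressors whose windows hold such letters, in lower case with the matches in capitals, each 5' to 3' on the gene's strand.
Per1 (chr11:69098699-69098948, plus strand): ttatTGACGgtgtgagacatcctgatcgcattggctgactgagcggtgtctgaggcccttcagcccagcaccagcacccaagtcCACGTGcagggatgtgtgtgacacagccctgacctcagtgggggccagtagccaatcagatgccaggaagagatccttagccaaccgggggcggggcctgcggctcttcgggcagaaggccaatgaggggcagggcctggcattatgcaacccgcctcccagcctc
Per3 (chr4:151044666-151044915, minus strand): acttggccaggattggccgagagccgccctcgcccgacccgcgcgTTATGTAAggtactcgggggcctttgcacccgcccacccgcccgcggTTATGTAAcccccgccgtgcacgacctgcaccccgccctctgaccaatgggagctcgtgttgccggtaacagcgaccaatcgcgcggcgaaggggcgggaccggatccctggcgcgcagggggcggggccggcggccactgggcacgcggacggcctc
Cry1 (chr10:85185055-85185304, minus strand): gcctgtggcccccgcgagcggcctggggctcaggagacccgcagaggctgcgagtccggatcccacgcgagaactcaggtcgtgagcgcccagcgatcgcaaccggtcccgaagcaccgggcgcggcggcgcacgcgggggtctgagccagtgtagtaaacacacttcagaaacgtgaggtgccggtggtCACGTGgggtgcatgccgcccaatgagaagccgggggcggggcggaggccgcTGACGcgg

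In this window Per1 had an E-box whose first base lies 166 before the start and a core element 246 before it. Its second window had only another core element. Per3 had 2 D-boxes, 205 and 158 bases before the start, and no E-box. D-boxes are rare in such windows, found in 1.06% of 32851 promoters. Cry1 had an E-box 60 bases before the start and a core element 8 before it. Cry2, whose window is not printed, had only a core element, 209 bases before the start. Over the family, E-boxes were in 4 of 12 windows, from Per1, Cry1 and both windows of Tef, where 7.15% of all promoters hold one. The full response element TGACGTCA was in 0 of 12, against 1.79% of all, its core in 5 of 12 against 20.8%. The glucocorticoid element was in 0 of 12, against 0.00913% of all, and the ROR element in 1 of 12, that of Nfil3, against 2.61%. The window of Dbp and the 3 windows of Clock held none of these letters. All 12 windows but 1 of Clock were rich in G and C, from 60.3% to 81.7%.

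Bhlhe40, which represses at E-boxes and responds to neuronal activity and hormones, was lowest at 2 h. It read 1249.7, 948, 1209 and 1108 on the 1, 2, 4 and 6 h arrays. The other 3 arrays lay within 1.13-fold of each other, and the range was 1.32-fold, as large as in 49.4% of genes.

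The output factors bind the D-box and carry the phase of the clock to other genes, DBP and TEF as activators and NFIL3 as a repressor at the same site. Dbp read 461, 374, 623 and 706 on the 1, 2, 4 and 6 h arrays. Both late arrays lay above both early ones, and 2 h was the lowest. At 6 h Dbp was 1.89-fold above 2 h (log2 difference 0.92) and 1.53-fold above 1 h (log2 difference 0.62). Between the 2 h and 6 h arrays 3.05% of all genes were as far apart, and between 1 h and 6 h 7.35%.

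Among 2518 genes within 2-fold of the mean intensity of Dbp, 7.86% had a range as large. Its range was 1.53-fold without the 2 h array and 1.67-fold without the 6 h array. These are the arrays with the actin ratio of 2.70 and with Ttr at 4482. The summed CA1 markers were also higher on the late arrays, at 10001 and 9957 against 7673 and 8317. The members of that list differed. Neurod6 read 768, 648, 1263 and 1089 and Wfs1 1709, 1637, 2608 and 2205 on the 1, 2, 4 and 6 h arrays. Both were lowest at 2 h, as Dbp was, with ranges of 1.95-fold and 1.59-fold. Nrgn was highest at 6 h, as was Man1a by its brighter probe set. Pou3f1 read 484, 455, 355 and 359 in that order of hours, and Camk2a was above the floor at 1 h only. The summed neocortex markers were lower on the late arrays, at 2116 and 2632 against 3218 and 3049, and Fezf2 among them read 2133, 2158, 1375 and 1579. Tbr1, another of them, read 1003, 827, 699 and 980 in that order of hours, lowest at 4 h but near its 1 h value at 6 h. Rasgrf2 and Cux2 lay below the floor on all 4 arrays. The part of either list in the course of Dbp was not tested. With a common median the range was 2.05-fold. In bulk tissue, more cells that express Dbp and more Dbp RNA per cell cannot be told apart.

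Tef, a close relative of Dbp, had another course. It read 3565, 2903, 2835 and 3199.8 on the 1, 2, 4 and 6 h arrays, highest at 1 h, with a range of 1.26-fold. Its 2 h and 4 h values changed places with a common median. As large a range occurred in 61.0% of genes, and in 31.3% of the 815 within 2-fold of its mean intensity. At 6 h over 2 h Tef differed by 1.10-fold, where Dbp differed by 1.89-fold.

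Nfil3 was near the floor. Its brighter probe set read 137, 146, 46.1 and 102 on the 1, 2, 4 and 6 h arrays, so that from 2 h to 4 h the drop was at least 1.45-fold. That one, which stands for the gene, is of the kind that may read several similar sequences (suffix f_at). The second probe set read 128, 126, 105 and 49.2 in that order of hours. Both were higher at 1 h and 2 h than later, but they disagreed on whether 4 h or 6 h was the lowest.

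**Figure D2:**
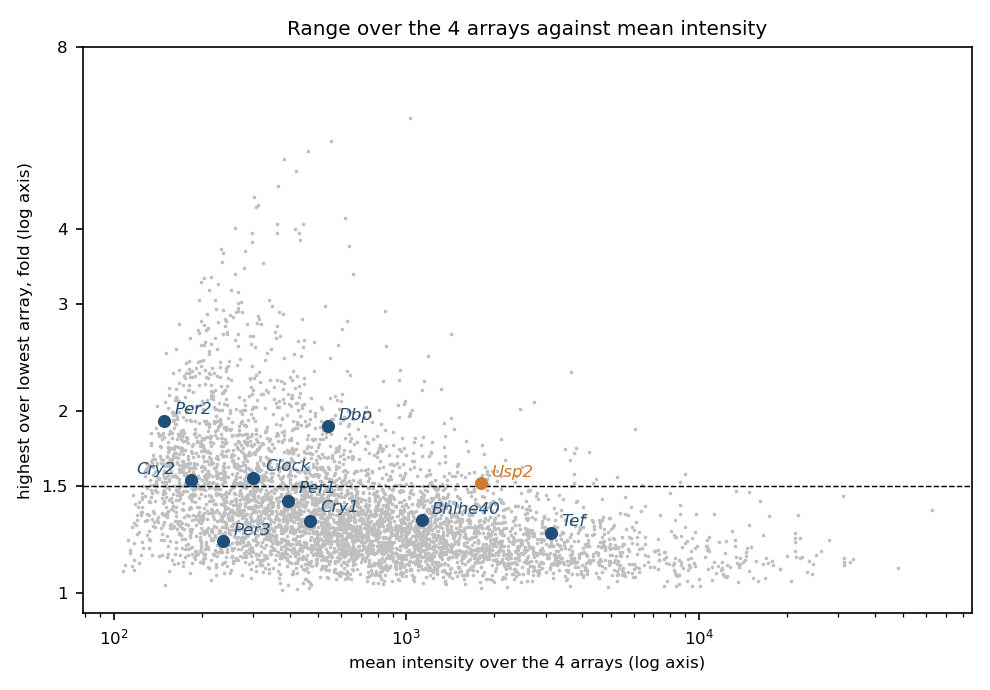
Fold between the highest and the lowest of the 4 arrays (vertical, log axis) against mean intensity (horizontal, log axis) for the 5018 genes above the floor on all 4 arrays in grey, with 9 clock genes in blue, Usp2 of the wider list in orange and the 1.5-fold limit as a dashed line. Dim genes spread more widely than bright ones, and Dbp, at 1.89-fold, lies above most genes of its intensity.

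Set against all genes, the family as a whole did not stand far apart. Of the 9 genes above the floor on all 4 arrays, 4 had a range of at least 1.5-fold, where 26.3% of all 5018 such genes did. These were Per2, Dbp, Clock and Cry2. The nearest above the limit was Cry2 at 1.54-fold, and the nearest below it was Per1 at 1.42-fold. Intensity matters here. With a mean intensity under 300, 3 of 4 family genes passed, against 53.1% of all genes. From 300 to 1000 it was 1 of 3, Dbp, against 25.2%, and above 1000 it was 0 of 2 against 6.65%. Clock, with a mean of 299, was counted just under the edge of 300. Without the 2 h array 2 genes passed, Per2 and Dbp, where 16.6% of all genes did.

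Pairs of arrays gave the directions. At 2 h 7 of the 10 genes were higher than at 1 h, where 49.8% of all genes were, and Dbp, Tef and Bhlhe40 were lower. At 4 h 4 of 10 were higher than at 1 h, against 48.2% of all genes. At 6 h 3 of 10 were higher than at 1 h, namely Cry1, Clock and Dbp, against 47.0%. With a common median the counts were 6, 5 and 4, where 45.4%, 56.4% and 58.6% of all genes were higher, as Per1 at 2 h, Bhlhe40 at 4 h and Per3 at 6 h changed sign, all by small amounts. These comparisons share the 1 h array. The median log2 difference of the 10 genes was 0.10, -0.08 and -0.16 on the 2, 4 and 6 h arrays, each over 1 h. Over all 5671 genes measured it was 0.00, -0.01 and -0.01.

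Between 2 h and 6 h, 3 of 10 genes were at least 1.5-fold apart, where 10.9% of genes were. There were 2 with a common median, Per2 and Dbp, against 12.0%. Dbp was higher, with 4.36% of all genes higher by as much, and Per2 and Cry2 were lower, with 6.57%. In all, 4 of 10 were higher at 6 h than at 2 h, a share near the 47.6% of all genes. The median log2 difference of the 10 was -0.22, where that of all genes was -0.01. Scaled to a common median it was -0.10, where that of all genes was 0.10. The robust SD of the log2 differences of all genes between these arrays was 0.31. Differences of single genes below this size, such as that of Per1, 1.15-fold, are within the usual spread between the arrays.

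Late and early times can also be set apart by order. Per1, Per3 and Cry2, 3 of 9 genes, had both late values (4 h and 6 h) below both early ones (1 h and 2 h), where 20.8% of all genes did. Dbp alone, 1 of 9, had both above, against 18.9%. With a common median 2 remained below, Per1 and Cry2, against 12.1% of all genes, and Cry1 joined Dbp above, against 30.6%.

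**Figure D3:**
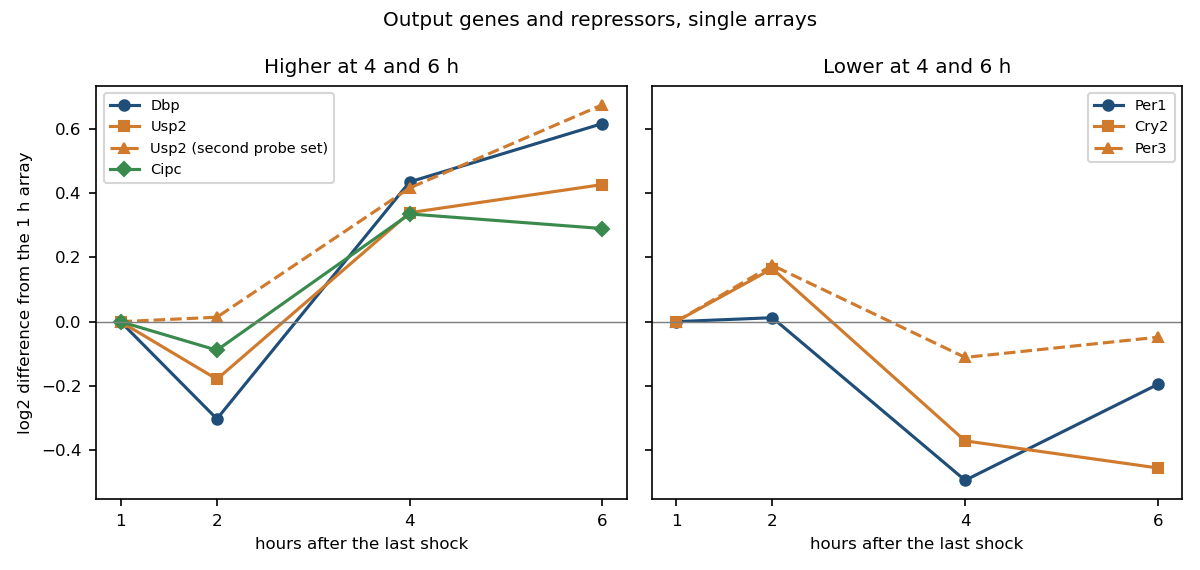
Log2 difference from the 1 h array (vertical) against hours after the last shock for Dbp, both probe sets of Usp2 and Cipc (left) and for Per1, Cry2 and Per3 (right), 1 array per point. Dbp reaches 0.62 at 6 h, while Per1 and Cry2 lie below 0 at 4 h and 6 h.

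The rest of the clock was described through a list of 41 genes of the loop, its kinases, ligases and cofactors. Of these 28 were on the array under their single symbol and 23 lay above the floor on all 4 arrays. Rorb, Bhlhe41 and Hlf were not analysed here. A range of at least 1.5-fold was found for 3 of the 23, Rora, Btrc and Usp2, where 26.3% of all genes had one. Without the 2 h array it was 1 of 24, Rora, against 16.6% of all genes. When all probe sets of a gene were averaged it was 1 of 23, Usp2, against 21.2%. In 9 of 23 both late values were above both early ones, against 18.9% of all genes, and in 0 of 23 both were below, against 20.8%. With a common median it was again 9, against 30.6% of all genes.

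Usp2, a ubiquitin protease whose RNA is a clock output in many tissues, followed a course like that of Dbp. Its brighter probe set read 1605, 1418, 2030.2 and 2157 on the 1, 2, 4 and 6 h arrays. The second one read 1360.1, 1373, 1814 and 2170.5 in that order of hours. Both probe sets were higher at 4 h and 6 h than at either early time, with ranges of 1.52-fold and 1.60-fold. Without the 2 h array the first range was 1.34-fold. With quantile normalization it was 1.48-fold, below the limit, while Nr1d1, described next, reached 1.52-fold. Among 1352 genes of like intensity 7.25% had a range as large as the first. Cipc, which encodes an inhibitor of CLOCK and was picked after its values were seen, read 491, 462, 619.9 and 601 in that order of hours.

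The nuclear receptors that drive or repress Arntl were highest at different times. Nr1d1, a repressor, read 359, 536, 390.0 and 390.2 on the 1, 2, 4 and 6 h arrays, high only on the 2 h array as Clock was. That array had the actin ratio of 2.70, whose part here was not tested. The range of Nr1d1 was 1.49-fold, and 1.09-fold without the 2 h array. Nr1d2, its relative, read 470.3, 581, 516 and 584 in that order of hours. Rora, an activator, read 109.6, 153, 197 and 127 in that order of hours. Like Per2, Rora was dim and highest at 4 h, and its second probe set lay below the floor on all 4 arrays.

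Kinases and ligases that set the stability of PER proteins gave mixed readings. Csnk1e read 1343, 1166, 1259.6 and 1035 on the 1, 2, 4 and 6 h arrays. By its brightest probe set Csnk1d read 1948, 2448, 1972 and 2011 in that order of hours, while another read 976, 903, 539 and 740.0 in that order. The probe sets thus disagreed on the highest time. Btrc, a ligase subunit, read 371, 557, 456 and 545 in that order of hours, but its second probe set stayed between 245 and 282.

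**Figure D4:**
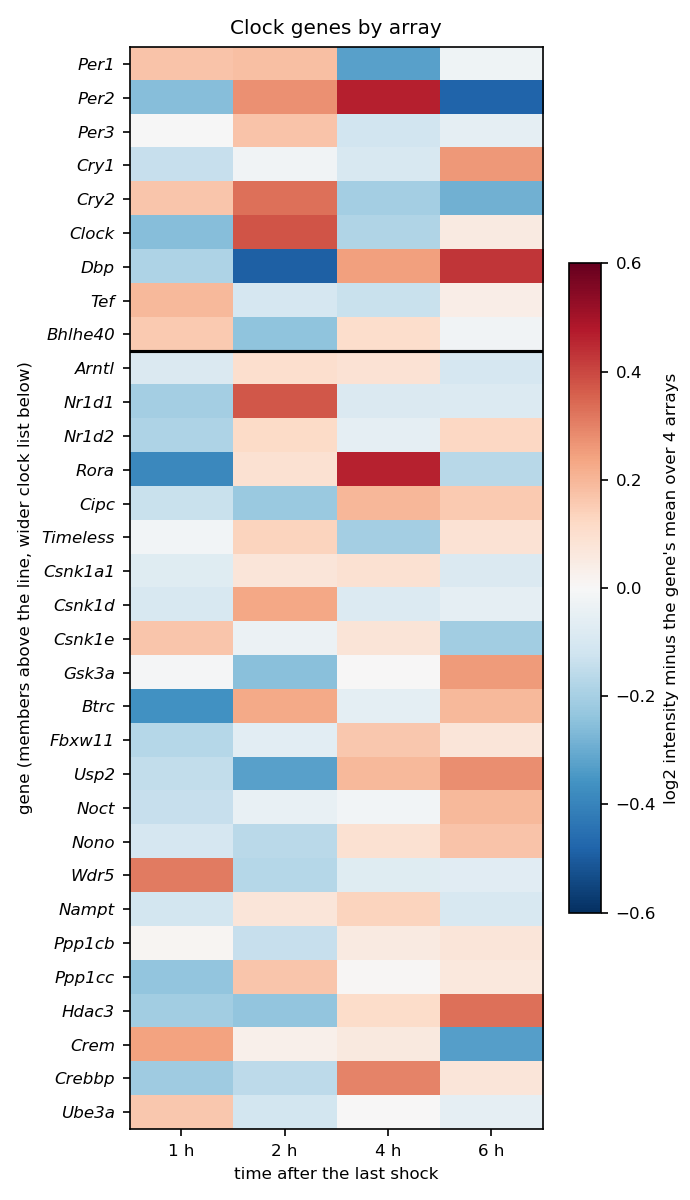
Log2 intensity minus each gene's mean over the 4 arrays (colour, red above and blue below), for the 9 clock genes (above the black line) and the 23 genes of the wider list (below it) that lay above the floor on all 4 arrays, with time across. Dbp, Usp2, Cipc and Hdac3 are blue at 1 h and 2 h and red at 4 h and 6 h, while Clock and Nr1d1 are reddest at 2 h.

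Genes induced by activity and by glucocorticoids can be set beside Per1. Fos, the activity marker, read 310, 607, 161 and 134 on the 1, 2, 4 and 6 h arrays, a steeper course than that of Per1. Tsc22d3, a glucocorticoid target, read 180.4, 178, 90.0 and 169 in the same order, the third value below the floor. Per1 and Tsc22d3 were thus both level early and lowest at 4 h, while Sgk1, another such target, was lowest at 6 h at 1513. Nr4a1 was highest at 2 h at 997 and Fkbp5 at 4 h at 1407. The probe sets of Klf9 disagreed, the brighter being highest at 2 h at 6559 and lowest at 6 h at 4732, while the second read 469, 515, 511 and 573 on the 1, 2, 4 and 6 h arrays, highest at 6 h.

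Profiles most like those of the 4 genes with a range of at least 1.5-fold were sought among 5017 other genes, by the root mean square distance of the 4 log2 values after centring. The nearest to Dbp was Otud7b, at 0.0054, which read 363, 294, 489 and 551 on the 1, 2, 4 and 6 h arrays. Next came Snrpa1 at 0.055 and Fcho1 at 0.056. Usp2 stood at rank 21 from Dbp, at 0.116, and Cipc at rank 157. Nearest to Cry2 were Psip1, Terf2 and Gmppb, nearest to Clock Pex19, Ctse and Top3b, and nearest to Per2 Cd4, Olfr140 and Zfp110. Nr1d1 stood at rank 43 from Clock, and Rora at rank 61 from Per2. With 4 arrays many genes share a shape, 94 of them within 0.1 of Cry2 and 11 within 0.1 of Dbp.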

How the data were processed

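Total RNA from CA1 was measured on 4 arrays, 1 per time. The deposited values are linear intensities of 12488 probe sets. As the values show, the authors had brought these intensities to 1 level, with a trimmed mean (2% off either end) of 500.3 throughout. The software that made them is not given in the sources used here. Names came from the platform's annotation, in which 10833 had 1 symbol. By gene identifier 10817 of these matched a RefSeq table, with 0 symbols changed. The probe set with the highest mean stood for a gene. Each array was scaled to a common trimmed mean over probe sets other than 66 controls (factors 0.999 to 1.001), and values below the 40th percentile were raised to that floor before log2. Intensities are printed before the floor. Ranges were counted over genes above the floor on all 4 arrays, directions over genes with a mean above it, and 1.5-fold differences over genes above it on both arrays. The members and lists were chosen with earlier results of these data known. Named genes were all 10 members, wider-list genes with a range of at least 1.5-fold, 10 fixed ones of that list, 6 genes induced by activity or glucocorticoids, and the 3 nearest profiles of each member with that range. Cipc and the genes under the closing observations were chosen after their values were seen. Alternatives were other scalings, floors, fold limits and probe set rules, and each array left out. The scripts were checked against known answers before use. The number of arrays limits the precision. The tools were NumPy 2.4.6 and pandas 2.3.3 under Python 3.11.15, with matplotlib 3.10.9 for figures.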

Additional observations from a re-analysis of the deposited data

How the results depend on the processing

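No paired analysis was possible because each time has 1 array and the labels give no replicate numbers. With the floor at the 60th percentile, 267 intensity units, 5 of the 10 genes lay above it on all 4 arrays. The genes with a range of at least 1.5-fold then numbered 1 in place of 4 (13.8% of all genes). Those at least 1.5-fold apart between 2 h and 6 h numbered 1 of 6 in place of 3 of 10 (4.78% of all genes). Those with late values below early ones numbered 1 in place of 3, and the share of all genes at this floor is not given here. Higher than at 1 h were 3 of 6 at 2 h and 2 of 6 at 4 h, against 48.3% and 50.1% of all genes. These stand in place of 7 of 10 and 4 of 10, since 6 genes have a mean above that floor. The median log2 difference of those 6 was 0.18 at 6 h over 2 h in place of -0.22, and 0.02 at 6 h over 1 h in place of -0.16. With a common median it was -0.10 and -0.08 over the 10 genes. At a limit of 1.3-fold 7 genes passed on range, against 52.5% of all genes, and at 2-fold 0, against 5.94%, with 0 also between 2 h and 6 h, against 2.35%. The wider list gave 11 of 23 at 1.3-fold and 0 of 23 at 2-fold, against the same 52.5% and 5.94%, in place of 3 at 1.5-fold. With a common median it gave 5 of 23, against 27.5% of all genes. With a floor at the 20th percentile it gave 5 of 25, against 39.5%, and with the mean over probe sets 1 of 23, against 21.2%. Leaving out 1 array gave 2 to 4 genes, and 1 to 2 of the wider list, fewest in both without the 2 h array. Of all genes 16.6% to 19.5% then passed, and this share too was lowest without the 2 h array. With a common median 2 genes had late values above early ones in place of 1, against 30.6% of all genes. That scaling moved the median of all genes at 6 h over 2 h by 0.11. Of 60 differences of single genes between pairs of times, 6 changed sign under some setting, with a size of at most 0.07 (log2). Late and early counts under other settings were added after the data were seen. Dim genes limit the rest: Per2, Cry2 and Nfil3 lie near the floor.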

Other observations

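Cofactors of the clock on the wider list had courses of their own, given as values. Hdac3, a deacetylase that acts with the nuclear receptor repressors, read 475, 465, 592 and 689.8 on the 1, 2, 4 and 6 h arrays. Its range of 1.48-fold was equalled or passed by 27.8% of all genes. Crem, a cyclic AMP-responsive modulator, was lowest at 6 h, at 264, 228, 233 and 177 in that order, and its second probe set was below the floor at 6 h only. Crebbp, a coactivator, was highest at 4 h at 1437, and Wdr5, a subunit of histone methylation complexes, at 1 h at 836. Noct, whose RNA is strongly rhythmic in liver, was by its brightest probe set higher at each later time, at 2361, 2519, 2568 and 2968, as were 4.15% of all genes, but with quantile normalization its late values were no longer both above the early ones. A second bright probe set read 2016, 2044, 2133 and 1893 in that order, lowest at 6 h. It is of the kind that may read several similar sequences (suffix f_at). A dim one of the same kind was highest at 6 h, at 139. Another 5 probe sets carry its symbol together with other genes and were not used. Sirt1 lay below the floor on all 4 arrays.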
